A study of Mus musculus with 6 samples.

Results

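The genes described here encode integrins, the paired alpha and beta receptor chains that hold cells to the extracellular matrix and to each other, and the proteins that gather on the inner face of an integrin to form a focal adhesion. Members were taken by gene symbol: all rows named as integrin alpha or beta genes, together with the talins, kindlins, the ILK, PINCH and parvin genes, paxillin, the kinases Ptk2 and Src, Bcar1, vinculin, zyxin, Vasp, the tensins and the binding partners of the beta1 tail. This rule found 48 of the 14016 genes in the deposited table, 47 of them adhesion genes and 1, Itgb3bp, a centromere protein gene that matches by its letters alone. The rule names 51 mouse genes in the GENCODE M21 annotation. No row carried the symbol Itgb2l, Fermt1 (kindlin-1, the kindlin of epithelia) or Tns2 (tensin 2), and older symbols of these genes were not searched.

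The samples were injured quadriceps muscle of 3 WT and 3 GATA-1 mutant mice, collected at 7 dpi after volumetric muscle loss in which no material was implanted in either genotype. The methods describe the injured WT mice as adult female C57BL/6 and do not give the age and sex of the mutants. The mutants are the ΔdblGATA line, which lacks eosinophils through a germline deletion of a paired GATA site that controls Gata1, so that the change is not limited to the muscle or to eosinophils. The question posed for these samples was what the absence of eosinophils does to injured muscle, but the table holds no value per mouse: it holds the authors' own comparison of the genotypes, which was not used, and 1 mean per gene over all 6 libraries. The results below are therefore levels in injured muscle as a whole. No SD, interval or test can be given for them, and the depth of each library is unknown.

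Integrins have no enzyme activity of their own. Talins and kindlins bind the short tail of the beta chain inside the cell and switch the receptor to its active form, the ILK, PINCH and parvin complex and the tensins tie the tail to actin, and paxillin, the focal adhesion kinase encoded by Ptk2, Src and Bcar1 carry the signal onward. In skeletal muscle the alpha7 beta1 pair anchors the fibre to laminin in its basement membrane, and leukocytes entering a wound use the beta2, alpha4 and beta7 integrins to leave the blood.

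Levels are given as the authors' mean log2 CPM (CPM, sequencing counts scaled to the library size) and, for any comparison between genes, per kb: the mean log2 CPM minus log2 of the length in kb of the longest coding transcript. In bulk tissue a low level can mean few cells of a type or little RNA per cell, and these cannot be told apart. One gene is written as higher than another only where the direction was the same with 3 measures of length (the longest coding transcript, the coding length, and the median coding transcript). As no spread over mice is known, whether neighbours in the order differ beyond it was not tested. The tissue carried its defining markers, with Acta1 at 14.30, Myh4 at 14.65, Ckm at 12.45 and Des at 11.74 mean log2 CPM. Of 3 leukocyte markers, Ptprc was at 4.76 and Cd68 at 5.05, while Adgre1 was not listed. Of 5 eosinophil markers only Ear2 was listed, at 0.13, and Gata1 itself was not listed. Genes were looked up by these symbols alone, so a gene present under an older symbol would count as not listed.

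The 48 genes spread widely around the centre of the table. Per kb their levels ran from -2.86 for Itgad to 7.03 for Itgb1bp2, a 944-fold range, with a median of 2.47 beside 2.28 over the 13943 genes with a known length. Of the 48 genes, 26 (54.2%) lay above that median. With all genes cut into 4 equal parts by level, the members numbered 12, 10, 13 and 13 from the lowest to the highest part. The distance between the medians of the members and of all genes, 0.20, was -0.22 per kb of coding length, so the group stood close to the centre of the table and on no fixed side of it.

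**Figure D1:**
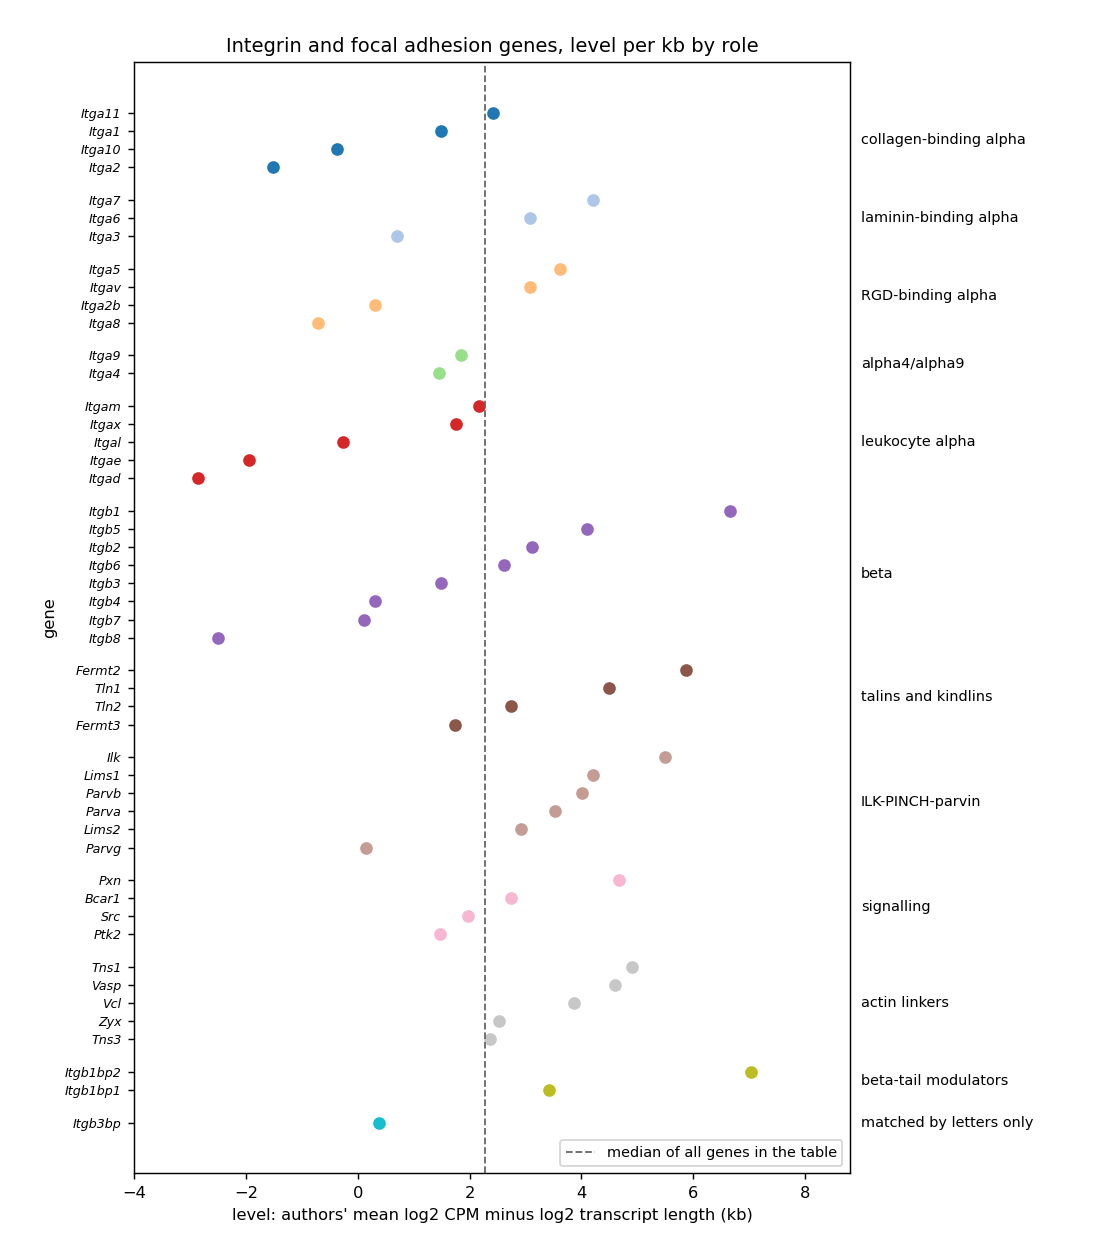
Level of each of the 48 genes (points), as the authors' mean log2 CPM over 6 libraries minus log2 transcript length in kb, ordered within its role, with the median of all genes (2.28) as a dashed line. The 5 leukocyte alpha genes all sit below the line and the 5 actin linkers all sit above it, while the beta genes run from -2.50 to 6.66.

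The receptor chains and the proteins inside the cell differed in their place. The 2 sets were gathered differently. The subunits are all integrin genes by name, while the proteins inside the cell came from a chosen list of 23 genes, 21 of them listed. Of 26 integrin subunit genes 9 (34.6%) lay above the median of all genes per kb, with a group median of 1.49, and of 21 genes for adhesion proteins inside the cell 17 (81.0%) did, with a group median of 3.53. The difference between these medians was 2.04 on the log2 scale, and it lay between 1.54 and 2.61 with other lengths, with no division by length or with weakly expressed genes left out. Per kb of coding length 8 of 26 and 14 of 21 lay above the median of all genes. Without division by length 13 of 26 and 16 of 21 lay above the median, so that the share of subunits above the centre depends on the length. The plot of the members among all genes shows both rows of marks.

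**Figure D2:**
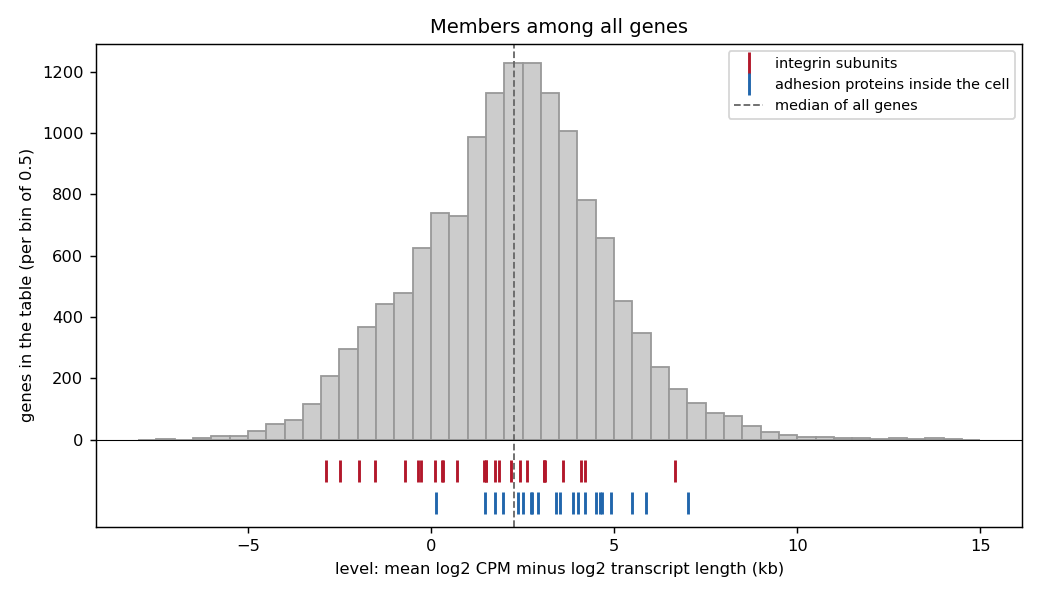
Grey bars count all 13943 genes by level (mean log2 CPM minus log2 kb, bins of 0.5), and the marks below show the 26 integrin subunits (upper row) and the 21 adhesion proteins inside the cell (lower row). The lower row is shifted to the right, with medians of 3.53 and 1.49.

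Itgb1, the beta chain shared by most matrix receptors, was the highest of the 8 beta genes with each length. It was listed at 8.59 mean log2 CPM, the highest value of any member before division by length, and at 6.66 per kb, above 96.3% of all genes. It lies on chromosome 8 of GRCm38, from 128685654 to 128733200. Its level per kb was between 5.87 and 9.21 times that of Itgb5 over the 3 lengths, and between 4.19 and 14.5 times that of Itgb2. Itgb5 came next with the longest transcript and with coding length, and Itgb2 with the median coding transcript. Itgb1 held 73.1% of the summed level per kb of these genes, 74.0% per kb of coding length and 68.3% with the median coding transcript.

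The other beta genes are given in their order per kb of the longest transcript. Itgb5, a partner of alphaV, was at 4.11 per kb and Itgb2, the beta chain of leukocyte integrins, at 3.11. Itgb6, a partner of alphaV known from epithelia, was at 2.61 per kb and Itgb3, which pairs with alphaV and on platelets with alphaIIb, at 1.49. Itgb4, the laminin receptor chain of epithelia and nerve sheath, was at 0.32 and Itgb7, of gut-homing lymphocytes and eosinophils, at 0.12. Itgb8, which pairs with alphaV and is known for activating latent TGFβ, was the lowest beta gene under each length, at -2.50 per kb and 0.57 mean log2 CPM. Itgb5 was higher than Itgb6 with each length, by between 1.86 and 2.83 times. Its order against Itgb2 turned with the median coding transcript, since the annotated coding transcripts of Itgb2 have a median of only 630 nt against 2970 nt for the longest.

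Itga7, the alpha chain of the muscle fibre's laminin receptor (chromosome 10, 128933818 to 128958282), was at 6.22 mean log2 CPM and 4.21 per kb, the highest of the 18 alpha genes per kb of the longest transcript and of coding length. With the median coding transcript Itgav was higher, an effect of a median of 688 nt among its annotated coding transcripts against 7054 nt for the longest. Itga7 was 2.19 times as high per kb as Itga6, a laminin receptor of endothelium, nerve and muscle stem cells, at 3.08 (1.96 to 2.19 times over the 3 lengths). Itga6 in turn was between 4.49 and 5.17 times as high as Itga3, at 0.71. These 3 genes kept their order with every length and without one.

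The RGD-binding alpha chains, named for the short peptide they recognise in fibronectin and vitronectin, split into a high and a low pair. Itga5, the fibronectin receptor chain, was at 3.61 per kb and Itgav at 3.08, and which of them was higher turned with the length used. Itga2b, a marker of platelets and megakaryocytes, was at 0.31, and Itga8, of smooth muscle and some fibroblasts, at -0.71. Itgb3, the platelet partner of Itga2b, was between 2.27 and 5.00 times as high per kb as Itga2b itself. Fn1, the fibronectin gene, was listed at 6.67 per kb, above 96.3% of all genes.

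The 4 collagen receptor chains had a median of 0.57 per kb. Itga11, a receptor of fibroblasts for fibrillar collagen, was at 2.43 and Itga1, which prefers collagen IV, at 1.50. Their order turned with coding length, since the longest transcript of Itga1 has 10967 nt of which 3537 are coding. Itga10, known from cartilage, was at -0.36, and Itga2, of platelets and epithelia, was the lowest under each length at -1.52. The collagen genes that these receptors bind were among the highest in the table, with Col1a1 at 9.10 and Col4a1 at 5.81 per kb.

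Itga4 and Itga9, which form a sequence family of their own and bind VCAM-1 and osteopontin among others, had no fixed order. Itga4 was at 4.73 and Itga9 at 4.66 mean log2 CPM. Per kb they were at 1.45 and 1.85, per kb of coding length at 3.10 and 3.02, and with the median coding transcript at 1.45 and 3.71. That median is 1935 nt for Itga9 against 7020 nt for its longest. Itga4 is the partner of both Itgb1 and Itgb7, and it has one of the longest transcripts of the group at 9767 nt. Spp1, the osteopontin gene, was at 5.95 per kb and Vcam1 at 2.40.

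The leukocyte alpha chains were the lowest group of subunits, with a median of -0.27 per kb and 0 of 5 above the median of all genes, also per kb of coding length. Itgam, which encodes CD11b, the chain carried by macrophages, neutrophils and eosinophils, was at 4.40 mean log2 CPM and 2.18 per kb. Itgax, which encodes CD11c of dendritic cells and some macrophages, was at 3.77 and 1.76, and its order against Itgam turned with the median coding transcript. Itgal, the LFA-1 chain common to lymphocytes, was at 2.11 and -0.27, so that Itgam was 5.46 times as high per kb, and between 5.03 and 5.46 times over the lengths. Itgae, the CD103 chain of tissue-resident T cells, was at -0.01 and -1.95. Itgad, the CD11d chain, was the lowest of all 48 genes with each length, at -0.82 and -2.86, and Itgam was between 32.7 and 38.5 times as high.

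Itgam, Itgax and Itgad stand side by side on chromosome 7 of GRCm38, at 128062640 to 128118491, 128129547 to 128150657 and 128154376 to 128223816 in that order. Reads of the cluster can be hard to assign. Of the 31-base words of Itgad, 28.8% also occur in other genes, chiefly Itgax, and 12.7% of those of Itgax do, chiefly in Itgad. For Itgam the share was 74.1%, and the gene model that shares the most of them is the overlapping Gm49368, which was not listed. Whether the authors' index held both models is not known, so the level of Itgam is uncertain.

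Itgad and Itgae were the only members with a mean below 1 CPM, as were 1198 genes (8.55%) of the table. The authors' filter asks for more than 1 CPM in 3 or more libraries. If filter and mean are on the same scale, the other 3 libraries together averaged below 0.321 CPM (geometric mean) for Itgad and below 0.987 CPM for Itgae. On that premise Itgad would have been uneven over the 6 mice, and which of them were low is not known from the mean. The premise was not tested. Means in the table reach down to -4.08 log2 CPM, where it would ask for still lower values in the other libraries.

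Summed over partners, alpha and beta chains can be set side by side. The 12 alpha genes whose products pair with beta1 summed to 65.6 CPM per kb and Itgb1 alone was at 101. The ratio of partners to Itgb1 was 0.649, and 0.666 and 0.906 with the other lengths. Itga7 made up 28.3% of the partner sum, or 20.3% per kb of coding length. With the median coding transcript Itga7 did not lead, and Itgav made up 56.1%. For the beta2 family the chains were nearly even with the longest transcript and with coding length, though the uncertain level of Itgam enters the partner sum. Itgb2 was at 8.63 CPM per kb and its 4 alpha partners summed to 8.87, a ratio of 0.973, and of 0.982 per kb of coding length. The median coding transcript gave 3.58 for the same ratio because of the short annotated transcripts of Itgb2. Itgam made up 51.0% of that sum, 53.5% per kb of coding length and 44.6% with the median coding transcript, where Itgax was at 45.7%. Of the partners of alphaV other than beta1, Itgb5 made up 65.5% of the summed level, 53.7% per kb of coding length and 60.8% with the median coding transcript. Itga4 made up between 91.3% and 96.8% of the sum of the partners of beta7, with Itgae as the remainder. These are sums of geometric means of RNA, and say nothing of protein pairs.

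Talins and kindlins, the proteins that activate integrins, held some of the highest levels. Fermt2, kindlin-2 of muscle and connective tissue (chromosome 14, 45458795 to 45530118), was at 7.59 mean log2 CPM and 5.87 per kb, above 93.5% of all genes. Fermt3, the kindlin of blood cells, was at 3.11 and 1.73, and Fermt2 was between 17.5 and 43.1 times as high per kb. The high end comes from a median of 768 nt among the coding transcripts of Fermt2. Per kb of coding length Fermt2 was 21.8 times as high. Tln1, the widely used talin (chromosome 4, 43531519 to 43562691), was at 7.57 and 4.50. Tln2, the talin enriched in heart and skeletal muscle, was at 6.34 and 2.74, so that Tln1 was 3.40 times as high per kb of the longest transcript, 2.35 times per kb of coding length and 14.5 times with the median coding transcript, which has 836 nt for Tln1 and 5152 nt for Tln2. The coding lengths of the talins are 7623 and 7632 nt, while the longest transcripts are 8393 and 12132 nt.

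The start-site windows of a few members show how unlike these genes are at their promoters. The windows below run from 250 bases before to 50 after the annotated start (RefSeq, GRCm38.p6, gene strand), and capitals mark each CG dinucleotide. Itgb1 and Fermt2 are shown as the most abundant subunit and the most abundant activator per kb. Itgax, an alpha and not a beta chain gene, and Fermt3, a kindlin gene like Fermt2, are shown as genes of blood cells. The windows are chosen examples. Itgax and Fermt3 hold some of the lowest CG counts of the members, and Vasp and Tln1, also high per kb, hold 13 and 16. Itgb1 is at chr8:128685404-128685703 on the plus strand, Fermt2 at chr14:45530016-45530315 on the minus strand, Itgax at chr7:128129300-128129599 on the plus strand and Fermt3 at chr19:7019420-7019719 on the minus strand.
Itgb1: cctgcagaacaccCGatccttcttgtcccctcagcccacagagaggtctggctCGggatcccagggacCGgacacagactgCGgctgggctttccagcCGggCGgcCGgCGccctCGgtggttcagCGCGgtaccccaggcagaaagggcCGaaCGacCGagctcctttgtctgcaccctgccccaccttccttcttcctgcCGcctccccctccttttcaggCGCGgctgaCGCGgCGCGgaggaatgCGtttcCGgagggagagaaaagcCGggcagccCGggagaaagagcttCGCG
Fermt2: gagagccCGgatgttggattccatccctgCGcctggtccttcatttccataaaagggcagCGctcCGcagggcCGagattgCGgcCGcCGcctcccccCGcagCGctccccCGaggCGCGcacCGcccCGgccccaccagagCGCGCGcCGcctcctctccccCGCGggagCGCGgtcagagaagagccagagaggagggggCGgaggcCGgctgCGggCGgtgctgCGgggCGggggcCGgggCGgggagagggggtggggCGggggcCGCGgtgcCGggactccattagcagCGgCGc
Itgax: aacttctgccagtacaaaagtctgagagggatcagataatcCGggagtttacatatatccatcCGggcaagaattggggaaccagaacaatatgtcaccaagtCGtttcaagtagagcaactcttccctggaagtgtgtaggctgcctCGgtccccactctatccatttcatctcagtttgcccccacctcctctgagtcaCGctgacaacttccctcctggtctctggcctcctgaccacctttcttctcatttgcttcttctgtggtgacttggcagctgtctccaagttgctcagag
Fermt3: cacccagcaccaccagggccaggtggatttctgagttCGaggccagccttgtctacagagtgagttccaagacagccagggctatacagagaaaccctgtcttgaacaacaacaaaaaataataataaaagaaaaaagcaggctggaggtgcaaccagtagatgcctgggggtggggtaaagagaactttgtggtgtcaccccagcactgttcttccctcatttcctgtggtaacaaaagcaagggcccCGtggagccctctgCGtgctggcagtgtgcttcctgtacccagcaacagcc
The windows hold 27 CG in Itgb1, 37 in Fermt2, 5 in Itgax and 3 in Fermt3.

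Windows were at hand for 34 of the 48 genes, and where a gene had several the most upstream start was used. The median was 17 CG per window for the 34 members and 20 for the 10365 listed genes with a window. Itgb1bp2, Pxn and Itga7, which ranked 1, 6 and 9 per kb among all 48 genes, had no window. With the 34 genes cut into 3 groups by level per kb, the 11 highest had a median of 27 CG (13 to 37). The 11 in the middle had 18 (5 to 47) and the 12 lowest 11 (3 to 24). Across the 34 members Spearman's rho between CG count and level per kb was 0.57, beside 0.16 across 10361 listed genes. The points share 1 set of libraries and many of the poor windows belong to genes of blood cells, so this is a description across genes. Src is an exception, with the highest CG count of 47 and a level of 1.97 per kb, and Itgb8 and Itga8 have 13 and 23 CG at levels of -2.50 and -0.71.

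**Figure D3:**
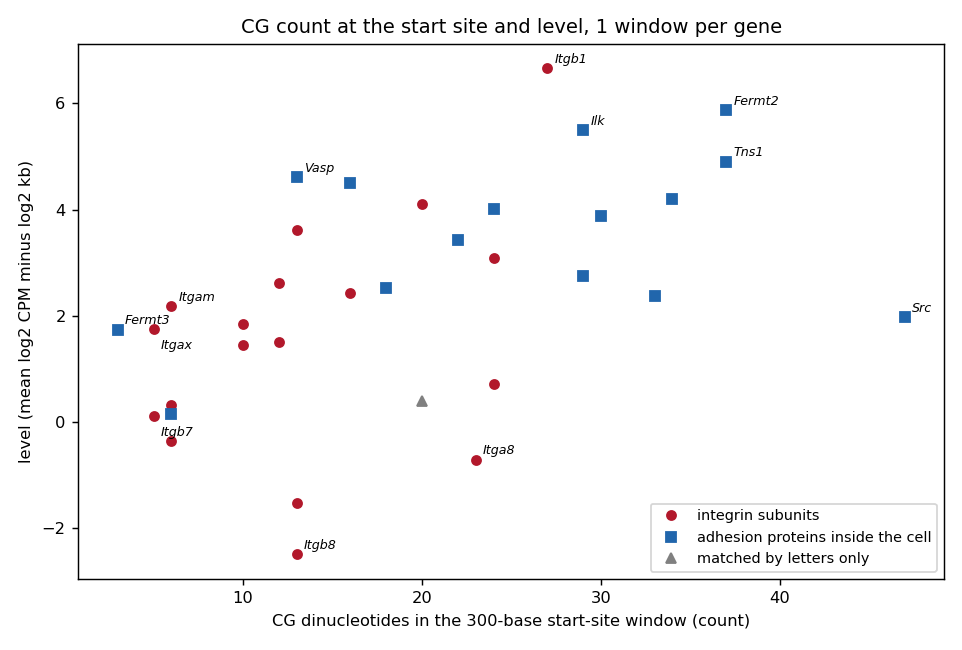
Number of CG dinucleotides in the 300-base start-site window (x axis) against level per kb (y axis, mean log2 CPM minus log2 kb) for 34 members, 1 point per gene. Fermt3, Itgax, Itgam and Itgb7 hold 3 to 6 CG, while Fermt2 and Tns1 hold 37 each, and Src stands apart at 47.

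Motifs were counted on both strands of the same windows. The CArG box, the site of serum response factor, was found in 2 of 34 members (5.88%) and in 1.33% of the listed genes with a window. The site in Vcl reads CCTTATAAGG and begins 227 bases before the start (chromosome 14, 20929171 to 20929180), and that in Fermt2 reads CCATAAAAGG and begins 204 bases before it (chromosome 14, 45530260 to 45530269). The letters TATAAA were in 0 of 34 windows, against 7.41% of those of listed genes. GGGCGG was in 17 of 34 (against 62.8%), CAGCTG in 9 (26.5%, against 15.3%) and GAGGAA in 10 (29.4%, against 26.8%). These matches are letters in a window and no binding was measured.

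The ILK, PINCH and parvin genes, whose products form 1 complex at the beta tail, had 5 of 6 members above the median of all genes. Ilk was at 6.34 mean log2 CPM, the PINCH gene Lims1 at 6.32 and the parvin genes Parvb and Parva at 5.93 and 5.68. Per kb they were at 5.49, 4.20, 4.01 and 3.53, with Ilk first, but per kb of coding length Lims1 was ahead of Ilk. The value of Ilk (chromosome 7, 105736592 to 105742925) is uncertain, because other genes on either strand share 86.6% of its 31-base words, chiefly the neighbouring and overlapping Taf10. Lims2, the second PINCH, was at 2.91 per kb, and Lims1 was between 2.27 and 4.88 times as high. Parvg, the parvin of blood cells, was the lowest of the complex with each length, at 0.15 per kb.
Parvb and Parvg lie next to each other on chromosome 15, at 84232043 to 84315688 and 84324026 to 84342978, and Parvb was between 8.07 and 21.4 times as high per kb. The order of Parva and Parvb turned with the median coding transcript.

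**Figure D4:**
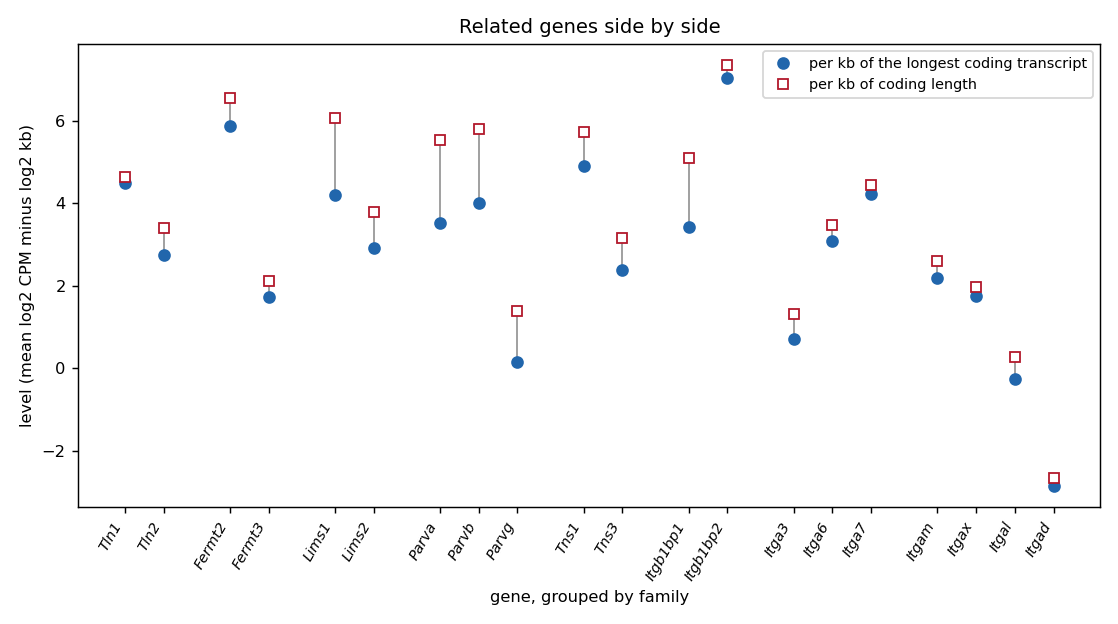
Level of related genes (y axis, mean log2 CPM minus log2 kb) per kb of the longest coding transcript (filled circles) and per kb of coding length (open squares), with families set apart on the x axis. Fermt3, Parvg and Itgad lie below the other genes of their families with both lengths.

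Genes typical of blood cells were not all low. Fermt3 and Parvg lay under the median of all genes, as did Itgal and Itgb7, but Itgb2 at 3.11 per kb lay above it and was between 6.02 and 9.22 times as high as Itgb7.

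The signalling genes were led by Pxn, paxillin, the scaffold of the adhesion (chromosome 5, 115506676 to 115555987), at 6.57 mean log2 CPM and 4.68 per kb. Bcar1, the stretch-sensing scaffold p130Cas, was at 4.40 and 2.75, and the kinase gene Src at 3.93 and 1.97. Ptk2 was at 3.70 and 1.47. Pxn was between 1.91 and 13.1 times as high as Ptk2 per kb, the low end coming from the median of 498 nt among the coding transcripts of Ptk2. It was between 3.82 and 7.39 times as high as Bcar1.

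All 5 listed actin linkers lay above the median of all genes per kb of the longest transcript. Tns3 lay below it per kb of coding length (3.16 against 3.42) and with the median coding transcript (2.37 against 2.85). Tns1, tensin 1, which joins beta tails to actin (chromosome 1, 73910231 to 74124449), was at 8.22 mean log2 CPM, second to Itgb1 among the members, and at 4.90 per kb. Tns3 was at 5.27 and 2.37, and Tns1 was between 5.78 and 20.5 times as high. The high end comes from a median of 2813 nt among the coding transcripts of Tns1, against 9966 nt for the longest. Vasp, which extends actin filaments, was at 5.75 and 4.61, and Vcl, vinculin, which takes up load between talin and actin, at 6.27 and 3.87. Of the words of Vcl 39.4% occur in other genes, chiefly Ap3m1, which it overlaps. Zyx, zyxin, a gene product that moves to strained actin, was at 4.20 and 2.52, and Vasp was between 2.60 and 4.43 times as high.

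Of the 2 genes for proteins that bind the beta1 tail, Itgb1bp2 was the highest of all members per kb. It encodes melusin, a chaperone-like protein of striated muscle, and lies on chromosome X from 101449088 to 101453541. It was at 7.42 mean log2 CPM and, with the shortest transcript of the group at 1314 nt, at 7.03 per kb, above 97.1% of all genes. Per kb of coding length it was also first, ahead of Itgb1, and with the median coding transcript Fermt2, Tln1 and Itgb1 were ahead of it. Itgb1bp1, which encodes ICAP-1, an inhibitor that competes with talin, was at 4.37 and 3.42, and Itgb1bp2 was between 4.75 and 12.1 times as high. Of the words of Itgb1bp1 20.04% occur in other genes, and it overlaps Asap2 and Cpsf3. Itgb3bp, the centromere gene, was at 1.87 and 0.38.

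The wider set of adhesion genes, chosen with the lists above, gives the setting. All 37 of the other adaptors and kinases were listed, with a median of 3.03 per kb and 28 (75.7%) above the median of all genes. Actn3, the alpha-actinin of fast fibres, was the highest at 11.24. Rsu1, which binds the PINCH proteins, was at 4.63 per kb, and Apbb1ip, which links Rap1 to talin in leukocytes, at 2.16. Of 20 ligand genes 19 were listed, with a median of 3.57 and 13 above the median of all genes, from Col1a1 at 9.10 to the fibrinogen chain gene Fga at -5.10. Among ligands of laminin receptors, Lamb2 was at 4.83, Lamc1 at 4.87 and Lama2, the alpha chain of adult muscle laminin, at 1.71. Icam1 and Icam2, ligands of the beta2 integrins on endothelium, were at 2.22 and 2.24.

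Transcripts of the 48 genes ran from 1314 to 12132 nt with a median of 4318.5 nt, against 3138 nt for all genes. Across the members Spearman's rho between length and mean log2 CPM was 0.03, and between length and level per kb -0.28, beside 0.06 and -0.29 across all genes with a length. The negative values follow from the division by length, as mean log2 CPM hardly changed with length. Division by length thus places long transcripts lower in the order per kb. Of the 48 genes 14 had more than 5% of their words in other genes and 6 more than 20%, namely Itga10, Itgam, Itgad, Ilk, Vcl and Itgb1bp1. The median over members was 0.40%.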

How the data were processed

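Quadriceps RNA with a poly(A) tail was sequenced from 3 WT and 3 GATA-1 mutant mice at 7 dpi. The authors used kallisto to assign the read pairs to transcripts, collapsed these to genes, and obtained CPM from edgeR. Their filter asked for more than 1 CPM in 3 or more libraries, after which the values were put on a log scale with TMM normalization and fitted with limma. The submitters' processing notes name GRCm39 and mm39, while the transcript index is not given in the sources used here. The deposited log2 value used is the authors' mean log2 CPM of each gene over all 6 libraries. Another 5 columns hold the authors' own genotype comparison (fold change, moderated t, p-values before and after adjustment, log odds) and were not used. There was no value per sample, so the planned limma fit was not made, the sequencing depth cannot be stated and, with 3 mice in each group, precision is low.

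Of 14016 rows, 1 without a symbol, 13458 have the symbol of a GENCODE M21 gene (GRCm38) and 485 an older symbol of one. All 48 members matched directly. Lengths, positions and shared 31-base words (either strand, longest coding transcript) come from that annotation. Start-site windows are from RefSeq. All members are named, by role. The members and lists were chosen with earlier results of these data known. Calculations used pandas 2.3.3 and scipy 1.17.1 and were tested on simulated data. Alternatives were other lengths, a minimum expression, protein-coding genes only and leaving out Itgb3bp.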

Additional observations from a re-analysis of the deposited data

How the results depend on the processing

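No paired analysis was possible because the table holds 1 mean per gene and no value per mouse. For the same reason leaving out each mouse, other normalizations and pseudocounts, and limma without a trend were not run. A median that moved by under 0.1 on the log2 scale, and a count within 1.5 times, are taken as unchanged. The median of the members minus that of all genes was 0.20 per kb. It became -0.10 with genes of at least 1 mean log2 CPM and -0.22 per kb of coding length, so that its direction depends on these choices, and it was 0.30 with the median coding transcript and 0.64 without division by length. Before division by length it was 0.64, and 0.32 with genes of at least 1 mean log2 CPM. The members above the median of all genes numbered 22 to 29 under all settings. The difference between adhesion proteins inside the cell and integrin subunits, 2.04, was 1.77 with the minimum expression, 2.61 with the median coding transcript and 1.54 without division by length. Single levels moved by over 1.5 times for 27 of 48 genes per kb of coding length and for 22 with the median coding transcript. Depth limits could not be set.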
